A study of Rattus norvegicus with 13 samples.

Results

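The frontal cortex of rats with rotational trauma was set against that of the matching sham rats. All were male Sprague–Dawley animals sampled 1 month after the procedure. In rotational injury the head is turned at high angular speed, with no blow to the exposed brain. The trauma group held 3 samples and the sham group 3, which are 6 of the 13 samples of the series. The sham rats had the anaesthesia and the surgery, and the trauma was left out. The remaining samples are 3 rats with lateral fluid percussion injury, a pressure pulse on the dura, and 4 sham rats of that model. They entered the fit to estimate the spread between samples and serve below as a second trauma model with its own sham. The labels give separate samples and do not say how animals were housed or processed, so the p-values measure the spread between these samples. The whole frontal cortex was taken, so in all that follows fewer cells of a type and less RNA per cell cannot be told apart.

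Total RNA was labelled with 1 dye from an oligo-dT primer and hybridised to 1 array per sample. Members of the comparison were probes well above background on all 3 arrays of rotational trauma, of rotational sham, or of both. There were 20017 such probes of 30367, and they gave 17247 genes with 1 probe each. The values are log2 signals after subtraction of each array's 75th percentile, called scaled log2 signals here. A value of 0 is the brightness of that percentile, and a difference of 1 is a fold of 2. A probe's level cannot be set against the level of another probe. A gene passed the test when its limma p, adjusted over all 17247 genes by the Benjamini-Hochberg method, was below 0.05.

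The markers of cortical cells were present. All 6 neuron markers, 5 astrocyte markers, 4 oligodendrocyte markers, 5 microglia markers and 4 endothelium markers of the lists used were measured. Of the 5 cortical layer markers, 4 were measured and Cux2 was not. All 5 striatum markers and all 7 markers of the meninges, the membranes that cover the brain, were measured too. Of 4 markers each, 3 thalamus and 3 olfactory bulb markers were measured, the latter with a mean centred level of −0.49 to 0.07 in sham and −0.51 to 0.98 in trauma. Of 5 choroid plexus markers, Ttr and Kcnj13 were measured, and Kl, Folr1 and Clic6 were not. Their mean centred level was −2.673 to 1.095 in sham and −0.247 to 1.438 in trauma. Ttr was at −0.93, −7.31 and −2.37 in sham and at −3.08, −3.76 and −1.02 in trauma, and the groups overlapped. Kcnj13 was higher in trauma by 1.17 without overlap of groups (limma adjusted p = 0.586). The part of choroid plexus tissue in the differences below was not tested. Within groups the arrays correlated at r between 0.993 and 0.997 for sham and between 0.991 and 0.992 for trauma across genes, which are not independent replicates. All 6 arrays lay on 1 slide. The sham arrays were in its column 1 and the trauma arrays in its column 2, so column and group cannot be told apart. The share of spots well above background was 73.1% to 74.1% on the sham arrays and 67.0% to 72.5% on the trauma arrays. The lowest signal well above background was −6.79 to −6.52 on the sham arrays, and −5.61, −5.71 and −6.50 on trauma arrays 1, 2 and 3. On the second slide the columns were the other way round, with percussion trauma in column 1 (72.7% to 73.8%) and percussion sham in column 2 (67.6% to 69.4%).

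A rotating head strains the brain in shear, which stretches axons and small vessels through its depth, and diffuse axonal injury is its classical lesion. In the weeks after an injury the cortex can hold reactive astrocytes and microglia, repairing vessels and membranes, and neurons that rebalance excitation and inhibition. Gene programmes often followed in this setting are those of p53, Notch, interferon, complement, the glucocorticoid response, synaptic receptors and myelin.

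At 1 month, 2 genes passed for rotational trauma. The transcript ENSRNOT00000049083 rose, and Ccng1, the p53-induced gene for cyclin G1, fell. ENSRNOT00000049083 entered the test only through the trauma arrays, since it was above background on 0 sham arrays, and with genes above background on all 6 arrays Ccng1 alone passed. These 2 are 0.0116% of the genes tested, with 0.0058% higher and 0.0058% lower. At an unadjusted p below 0.05 there were 1212 genes (7.03%), 495 higher (2.87%) and 717 lower (4.16%). The median absolute log2 difference over all genes was 0.09, and the median difference was −0.03. The lower share of the genes at an unadjusted p below 0.05 was 59.2%, and 76.9% with normexp, 48.5% with quantile normalization and 47.6% with the percentile taken over probes. The mean was lower in trauma for 10431 genes (60.5%) and higher for 6816 (39.5%). All 3 trauma arrays lay above all 3 sham arrays for 839 genes (4.87%), and below them for 1861 genes (10.8%). After percussion trauma 0 genes (0%) passed by limma, with 1968 (11.4%) at an unadjusted p below 0.05. The shares of 4.87% and 10.8% are the background for the counts given below for gene groups. No array of trauma was above background for 281 genes, and no array of sham for 7 genes.

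**Figure D1:**
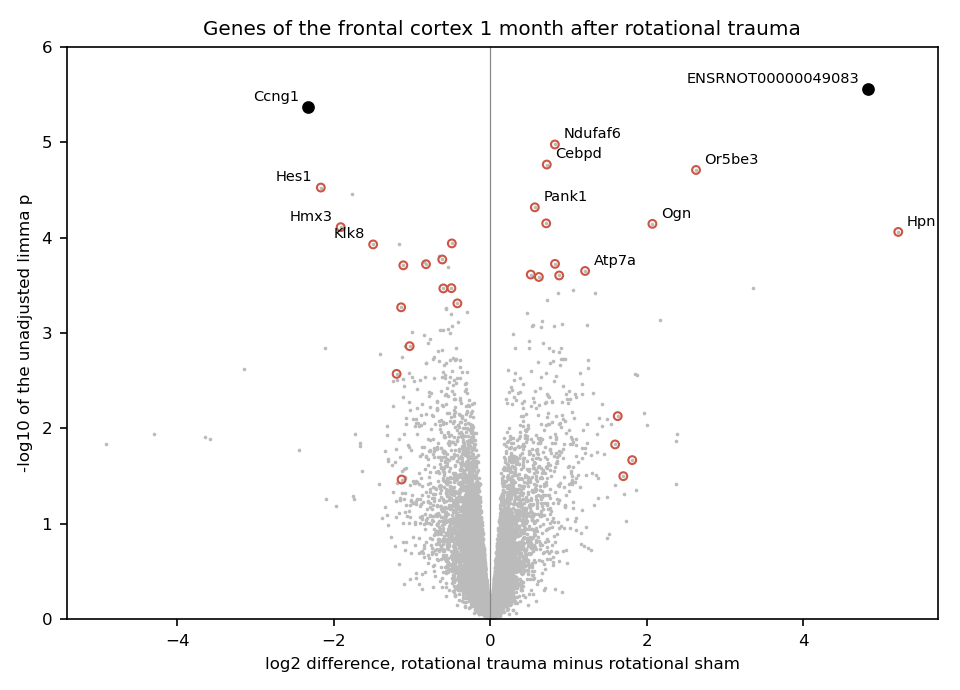
Each point is 1 of 17247 genes, with the log2 difference of rotational trauma minus rotational sham on the x axis and −log10 of the unadjusted limma p on the y axis. Filled black points are the 2 genes that passed after adjustment and open red circles other genes named in the text. ENSRNOT00000049083 lies at 4.83 and Ccng1 at −2.33, above all other points, and Hpn, which did not pass, lies farthest to the right.

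The 60-base probes of both genes are shown first, because each call rests on a single probe, together with the probe of the olfactory receptor gene Or5be3, which is taken up below for its difference between the trauma models. They were designed by the array maker and are printed 5′ to 3′ in lower case, since no stretch within them is singled out.
ENSRNOT00000049083: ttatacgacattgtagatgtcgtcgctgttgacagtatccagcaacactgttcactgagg
Ccng1: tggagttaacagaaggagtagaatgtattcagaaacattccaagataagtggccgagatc
Or5be3: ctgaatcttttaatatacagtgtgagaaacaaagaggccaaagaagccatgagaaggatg
Per the array files, on the rn4 build, the first probe matches chrX:140696248-140696307 on the minus strand. The Ccng1 probe matches chr10:25778638-25778912 on the minus strand. Its 60 bases span 275 bases of the genome, so it crosses an intron and lies in at least 2 exons. The Or5be3 probe matches chr3:70413952-70414011 on the minus strand. Each of these 3 sequences occurs on 1 probe of the array only. ENSRNOT00000049083 is the name in the array files, which give it no symbol.

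Ccng1 was at 1.53, 0.49 and 0.50 on sham arrays 1, 2 and 3, and at −1.56, −1.46 and −1.45 on trauma arrays 1, 2 and 3. The 3 trauma arrays lay close together and far below every sham array, of which sham 1 was the brightest. The sham mean was 0.84 ± 0.60 (SD, n = 3) and the trauma mean −1.49 ± 0.06 (SD, n = 3), which is a 5.03-fold fall (log2 difference −2.33, SE 0.28, limma adjusted p = 0.037). On the percussion arrays Ccng1 was at 0.80, 1.12 and 1.24 after trauma and at 0.96, 1.25, 0.36 and 1.18 in sham, so the 3 rotational trauma arrays were the lowest of all 13. The percussion log2 difference was 0.12 (SE 0.27, adjusted p = 0.902), and the difference between the models was −2.45 (SE 0.39, adjusted p = 0.112), which did not pass. When 1 rotational array was left out, the log2 difference of Ccng1 lay between −2.51 and −1.99. Its direction could not turn, since the groups did not overlap. Leaving out a percussion array cannot change this difference and alters only its SE and p. The call was lost with quantile normalization (adjusted p = 0.08) and with the 6 rotational arrays alone (0.174). The call was lost too with array row (0.0538) or replicate number (0.132) in the model. It was also lost in 7 of the 13 fits that left out 1 array. The adjusted p was then 0.0723 when rotational sham 3 was left out, and 0.0656 and 0.0631 when rotational trauma 1 or 2 was. It was 0.0936 when percussion trauma 2 was left out, and 0.0519, 0.0645 and 0.074 when percussion sham 1, 2 or 4 was.

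ENSRNOT00000049083 was not well above background on any sham array, with measured values of −8.69, −8.76 and −8.56, and was at −3.64, −3.22 and −4.67 on trauma arrays 1, 2 and 3. All 3 trauma arrays were above background and far from the sham arrays. Against the lowest signal above background on the sham arrays the transcript rose at least 7.20-fold (fitted log2 difference 4.83, SE 0.56, adjusted p = 0.037). On the second slide the direction was the other way. Percussion sham was at −7.59, −7.80, −5.41 and −7.84, and percussion trauma at −8.51, −8.61 and −8.67. The difference between the models was 6.26 (SE 0.77, adjusted p = 0.0404) and passed. The arrays of higher signal were thus those of column 2 on both slides, and the part of the column in this result was not tested. The call was lost in 9 of the 13 fits that left out 1 array. The adjusted p was 0.0896, 0.0786 and 0.0723 without rotational sham 1, 2 and 3, and 0.0601 and 0.0605 without rotational trauma 1 and 2. It was 0.0936 without percussion trauma 2, and 0.0519, 0.0645 and 0.0726 without percussion sham 1, 2 and 4. It was also lost with quantile normalization (adjusted p = 0.0877), and with array row (0.144) or replicate number (0.125) in the model. The log2 difference was 1.44 with normexp, another background correction (adjusted p = 0.255), and 2.05 in the authors' log2 table (adjusted p = 0.0479). Both are below the bound given above, which thus holds only for the main processing.

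**Figure D2:**
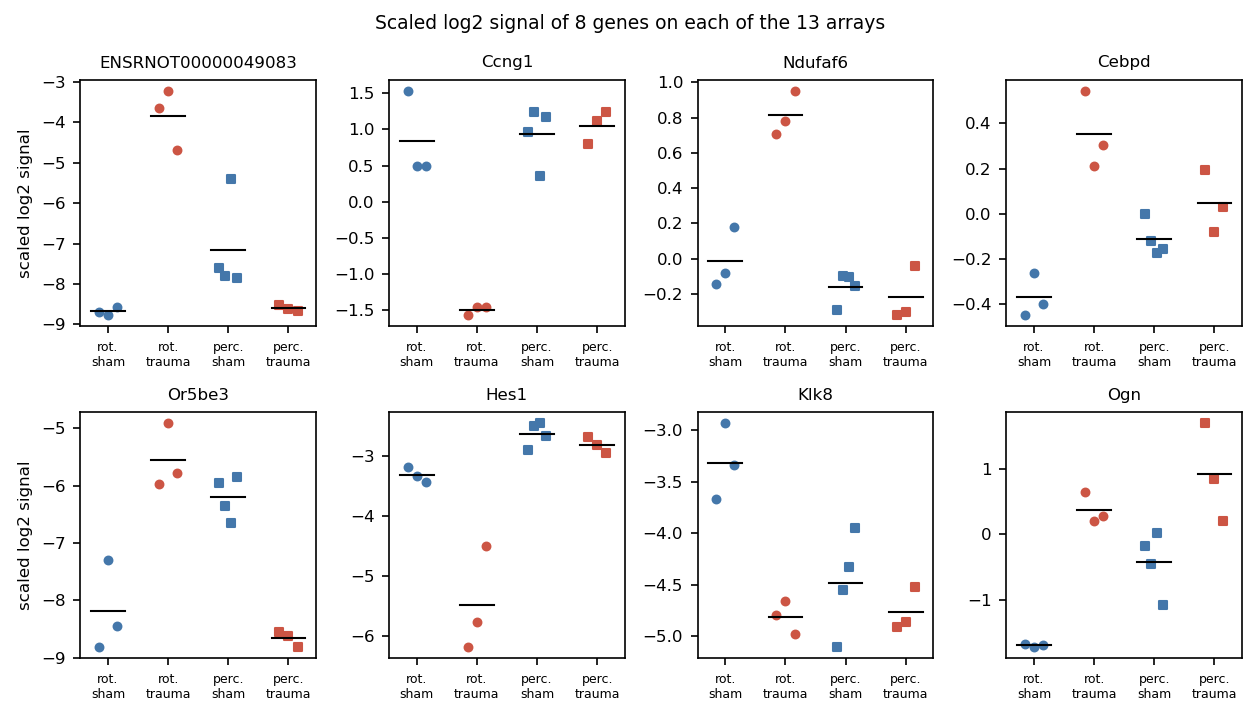
Scaled log2 signal (y axis) of 8 genes in the 4 groups (x axis), 1 point per array with sham in blue and trauma in red, circles for rotational and squares for percussion arrays, and the group mean as a bar. The 3 rotational trauma arrays were the lowest of 13 for Ccng1, and for ENSRNOT00000049083 and Or5be3 rotational trauma and percussion sham were the higher groups on their slides.

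p53 halts the cell cycle and directs repair or death after DNA damage, and Ccng1 is one of its classical targets. Of 20 measured targets, 1 passed, which was Ccng1, and the list median was −0.01 against −0.03 over all genes. Plk2, a kinase that acts at synapses and in the cell cycle, was the next by p, with −0.26 (adjusted p = 0.746). Its sham values were 1.48, 1.40 and 1.49 and its trauma values 1.29, 1.24 and 1.05. Cdkn1a, which encodes the p53-induced inhibitor p21, was at 2.70, 2.43 and 2.64 in sham and at 2.63, 2.42 and 2.35 in trauma. These groups overlapped, and a dimmer probe of Cdkn1a went the other way (0.40 against −0.12). Such a difference in sign between probes was found for 56 of the 203 genes with several probes that were named or listed. Dimmer probes of Mdm2 and Zmat3 were lower without overlap of groups, by −0.33 and −0.38. Their brighter probes differed by −0.02 and 0.01. With another scaling the sign of this list's median turned, and its range over all settings was −0.043 to 0.01.

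The genes nearest the threshold without passing included several regulators and metabolic genes, given here as values. Ndufaf6, which encodes an assembly factor of respiratory complex I, was at −0.15, −0.08 and 0.18 in sham and at 0.71, 0.78 and 0.95 in trauma. The difference was 0.83 (SE 0.11, adjusted p = 0.0605), and on the 7 percussion arrays the values lay between −0.32 and −0.04. Ndufaf6 was an exception among genes of oxidative phosphorylation, whose 53 measured members had a median of −0.01 with 20 higher and 33 lower. Cebpd, a C/EBP family factor active in inflammation, was at −0.45, −0.26 and −0.40 in sham and at 0.54, 0.21 and 0.30 in trauma (0.72, SE 0.10, adjusted p = 0.0672). Its groups did not overlap, and the percussion difference was 0.16. Pank1, which encodes the first enzyme of coenzyme A synthesis, differed by 0.57 (adjusted p = 0.104), and Bdh1, an enzyme of ketone body use, by 0.62 (adjusted p = 0.171). Slc15a2, a peptide transporter that astrocytes carry, differed by 0.72 (adjusted p = 0.122). Atp7a, a copper pump, differed by 1.21 (adjusted p = 0.168), with sham 2 at −4.12 below the other sham arrays at −2.93 and −3.20. Slc17a6, the vesicular glutamate transporter typical of thalamic neurons, differed by 0.88 and the bHLH factor gene Tcfl5 by 0.52 (adjusted p = 0.171 for both).

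Secreted and membrane serine proteases stood among these genes in both directions. Hpn encodes hepsin, a membrane protease best known from liver. It was not well above background on any sham array, at −7.93, −7.62 and −8.80, and was at −3.15, −2.46 and −3.09 in trauma, which is at least 13.9-fold brighter in the main processing (adjusted p = 0.125). The bound depends on the processing, since the log2 difference was 2.08 with normexp. Ctrl, a chymotrypsin-like protease gene, differed by 0.83 (adjusted p = 0.159). Klk8, which encodes neuropsin, a protease that acts on synaptic adhesion in the forebrain, was at −3.66, −2.93 and −3.34 in sham and at −4.80, −4.66 and −4.98 in trauma. Its difference was −1.50 (SE 0.26, adjusted p = 0.135), and the groups did not overlap. Prss12, which encodes neurotrypsin, differed by 0.76 (adjusted p = 0.385). Over the 22 measured serine proteases and serpins, 12 were higher and 10 lower. For 7 all trauma arrays lay above all sham arrays, against 4.87% of all genes. For 2 all lay below, against 10.8% of all genes, which is near that share. On the percussion slide, Hpn and Ctrl were higher on all sham arrays than on any trauma array, as for ENSRNOT00000049083. The arrays of higher signal were those of column 2 on both slides, and the part of the column was not tested.

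Or5be3, an olfactory receptor gene of dim signal, was at −8.82, −7.31 and −8.45 in sham, where 1 array was above background, and at −5.98, −4.91 and −5.78 in trauma, where all 3 were. The rotational difference was 2.63 (SE 0.37, adjusted p = 0.0672) and the percussion difference −2.47 (SE 0.35, adjusted p = 0.11). The difference between the models, 5.10 (SE 0.51, adjusted p = 0.0112), passed. Only this gene and ENSRNOT00000049083 passed that test, 0.0116% of 17247, with 1513 genes (8.77%) at an unadjusted p below 0.05. Both entered the test only through rotational trauma, with 1 and 0 rotational sham arrays above background. With the filter above background on all 6 arrays 0 genes passed, and likewise 0 with normexp, in the authors' log2 table and with array row. Both were brighter in column 2 of their slide. Of the same gene family, Or2v1 and Or8c19 differed by −0.82 and −0.50 (adjusted p = 0.159 and 0.203). Or2v1 was not well above background on any trauma array.

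Lower values in trauma were found for several genes of mixed roles. Sec23b, a component of the COPII coat that carries cargo out of the endoplasmic reticulum, was at 0.64, 0.47 and 0.41 in sham and at 0.17, −0.14 and 0.02 in trauma (−0.49, adjusted p = 0.135). Smim26, a small membrane protein gene, was at −2.36, −2.26 and −2.44 in sham and at −3.14, −2.82 and −2.93 in trauma (−0.61, adjusted p = 0.159). Their probes are neighbours on rn4, at chr3:133146652-133146711 and chr3:133156674-133156733, both on the plus strand. Crot, a peroxisomal carnitine acyltransferase gene, differed by −0.42 (adjusted p = 0.248). Hmx3, Stk32a, Galns and Hal were not well above background on any trauma array, so their measured differences of −1.91, −1.11, −0.60 and −1.14 are no sizes of a change. In the authors' log2 table they were −0.26, −0.087, −0.099 and −0.063. The lowest signal above background was itself higher on trauma arrays 1 and 2 than on the sham arrays.

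Among genes above background on all 6 arrays, those with a RefSeq symbol and groups that did not overlap were ranked by size. The 5 at the higher end were Ogn (2.07), Mfap5 (1.82), Klhl14 (1.70), Actg2 (1.63) and Aqp1 (1.60), with adjusted p of 0.122, 0.594, 0.65, 0.519 and 0.573. The choroid plexus marker Kcnj13 was higher as well, by 1.17, and the part of that tissue in these differences was not tested. Ogn, which encodes the matrix proteoglycan osteoglycin, was at −1.68, −1.72 and −1.69 in sham and at 0.64, 0.21 and 0.29 in trauma. Its sham arrays were nearly equal, and all trauma arrays lay well above them. The percussion difference of Ogn was 1.34 (adjusted p = 0.216). Trauma 3 was far above the others for Klhl14, at −3.54, −4.49 and −1.35 on trauma arrays 1, 2 and 3, as it was for the olfactory bulb marker Doc2g (−3.71, −3.99 and −2.47), and the part of such tissue was not tested. The 5 at the lower end were Ccng1, Klk8, Slc35g3 (−1.20), RatNP-3b (−1.13) and Tmem243 (−1.03), the last 3 with adjusted p of 0.419, 0.659 and 0.361. RatNP-3b names a neutrophil defensin, but 98.3% of its probe's bases are A or G, so its match to that gene is uncertain.

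Gene groups were described by counts and medians, and 0 of their members passed apart from Ccng1. Across 45 lists the medians ranged from −0.449 for genes of striatal projection neurons to 0.905 for meningeal and fibrillar matrix genes.

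**Figure D3:**
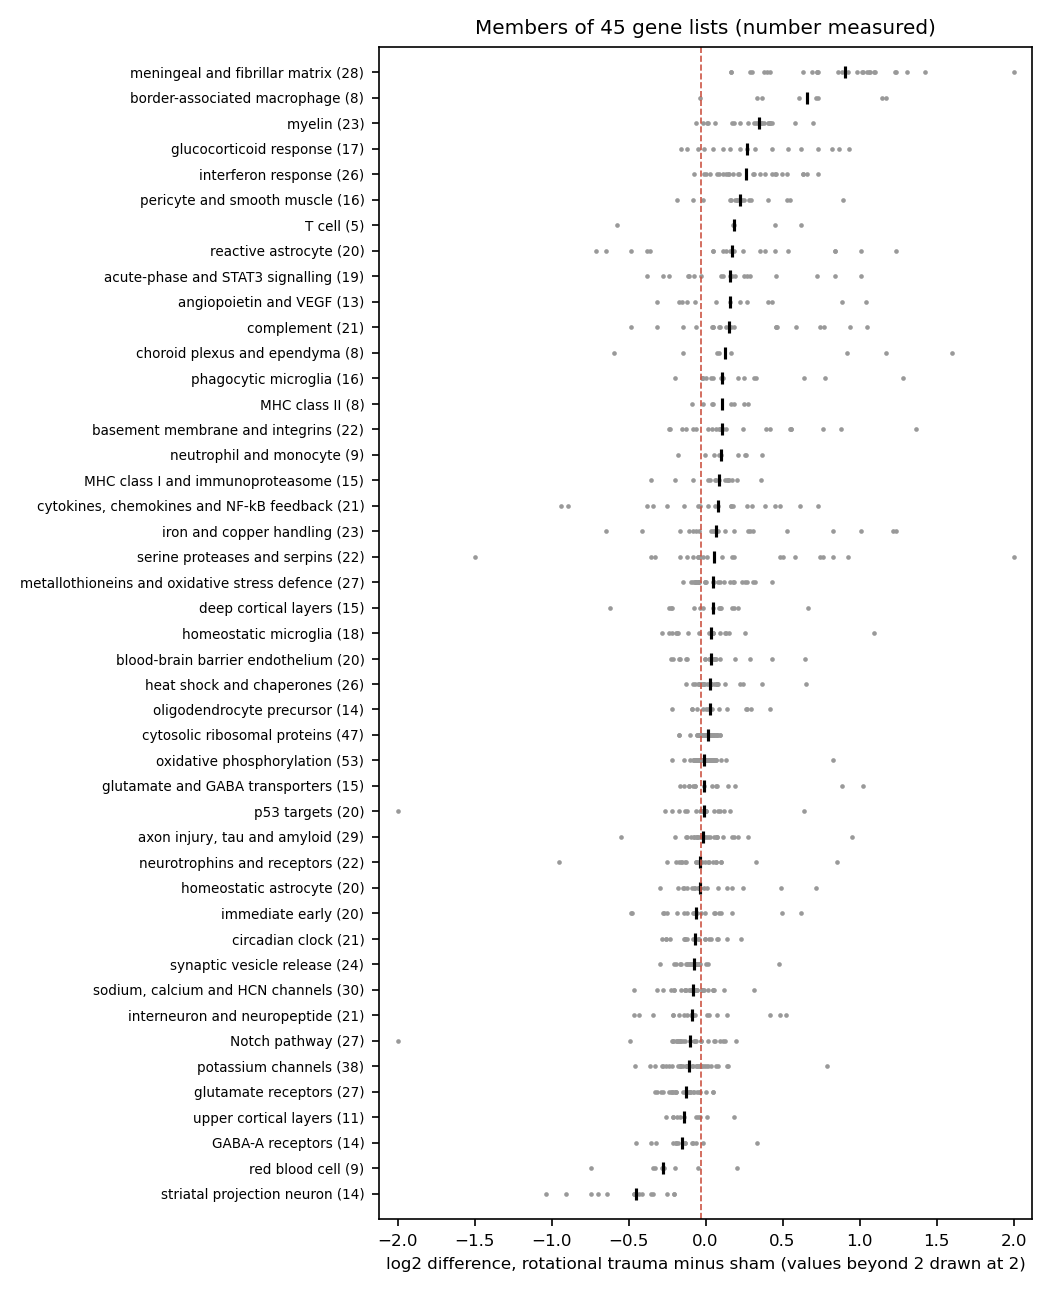
Each grey point is a member of 1 of 45 gene lists, placed at its log2 difference of rotational trauma minus sham (x axis), with the list's median as a black bar and the median of all genes as a dashed line, and values beyond 2 drawn at 2. Meningeal and fibrillar matrix genes lie all to the right of 0 and striatal genes all to the left, while oxidative phosphorylation and ribosomal protein genes cluster at 0.

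Genes of the brain's border tissue had the largest positive values. All 28 measured meningeal and fibrillar matrix genes were higher in mean after rotational trauma, and for 18 of them every trauma array lay above every sham array, against 4.87% of all genes. The mean of the members' centred values, called the list level, was −0.07, −0.70 and −0.51 on sham arrays 1, 2 and 3 and 0.83, 0.12 and 0.34 on the trauma arrays. All 3 trauma arrays lay above all sham arrays, with sham 1 nearest to them. Igf2, a growth factor made by the meninges, was at 1.76, 1.00 and 1.30 in sham and at 3.36, 2.20 and 2.43 in trauma (1.31, adjusted p = 0.462). Ptgds, the prostaglandin D synthase of the meninges, differed by 0.98 and Aldh1a2, which makes retinoic acid there, by 1.42 (adjusted p = 0.477 for both). Col1a1 and Col1a2, the chains of type I collagen, differed by 0.89 and 1.23. Percussion trauma gave a median of 1.05 for the same list, and 0 members passed the test of the difference between the models. All 7 defining markers of the meninges were higher in trauma, with a mean centred level of −1.0 to −0.08 in sham and 0.01 to 1.15 in trauma. Aldh1a2, Col1a1 and Col1a2 are among these markers, so markers and list share values and are not separate results. These markers moved with the group, and their part in the list's values was not tested.

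Genes of the macrophages of these borders had higher means as well. Of 8 measured genes 7 were higher, with a median of 0.66. Clec10a, a lectin of tissue macrophages, was at −3.16, −4.04 and −3.61 in sham and at −2.10, −3.01 and −2.26 in trauma (1.15, adjusted p = 0.419). Cd163, the haemoglobin scavenger receptor, differed by 1.17 (adjusted p = 0.462). Trauma 2, at −0.13, was the lowest trauma array for this list and lay below sham 1 at −0.08. The median was 0.273 with normexp. Vessel wall genes leaned the same way, with 13 of 16 pericyte and smooth muscle genes higher and a median of 0.222. For 6 of them all trauma arrays lay above all sham arrays, against 4.87% of all genes. Vtn, the pericyte gene for vitronectin, differed by 0.90 (adjusted p = 0.396). Among basement membrane genes and integrins 16 of 22 were higher, led by Nid2 with 1.36 (adjusted p = 0.57).

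Most genes of the glucocorticoid response had higher means after rotational trauma. They are bound and induced by the receptor for corticosterone, the stress hormone of the rat. Of 17 measured members 13 were higher and 4 lower, and for 9 all trauma arrays lay above all sham arrays, against 4.87% of all genes. None was lower on all trauma arrays. The median was 0.267, and 0 passed. The list level was −0.18, −0.18 and −0.14 on the sham arrays and 0.13, 0.17 and 0.21 on the trauma arrays, so the groups were well apart. Ddit4, a stress-induced inhibitor of mTORC1, was at 0.62, 1.03 and 0.84 in sham and at 1.58, 2.00 and 1.51 in trauma (0.87, SE 0.17, adjusted p = 0.203). Errfi1, a feedback inhibitor of the EGF receptor, was at 0.93, 0.98 and 0.97 in sham and at 1.51, 1.40 and 1.57 in trauma (0.54, adjusted p = 0.298). Sgk1, a kinase that regulates ion channels, differed by 0.82 (adjusted p = 0.298) and the sulfotransferase gene Sult1a1 by 0.93 (adjusted p = 0.384). Each of these 4 genes had groups that did not overlap. The receptor itself, Nr3c1, differed by 0.11. After percussion trauma the list median was −0.06 with 6 of 17 higher, and Ddit4, Dusp1 and Nfkbia went the other way there, with −0.45, −0.67 and −0.53. Their differences between the models were 1.31, 1.29 and 1.26 (adjusted p = 0.136, 0.161 and 0.232) and did not pass. These 3 genes were higher in column 2 on both slides.

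**Figure D4:**
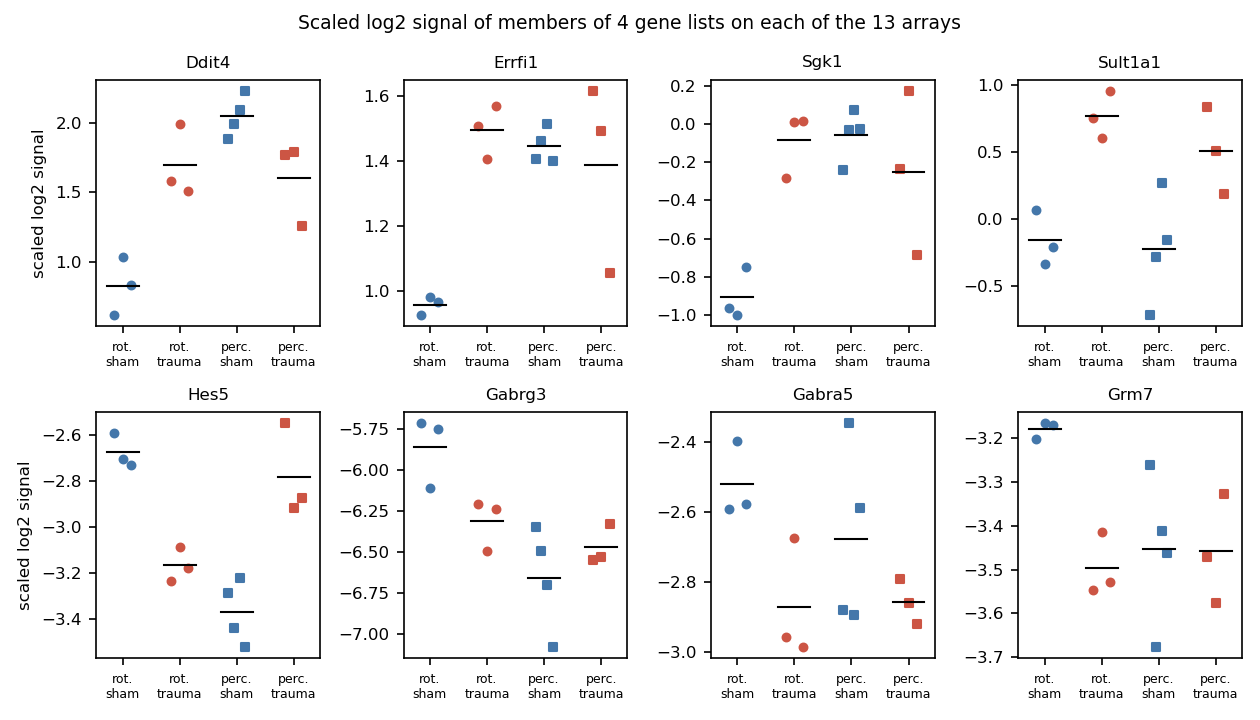
Scaled log2 signal (y axis) of 8 members of the glucocorticoid, Notch, GABA-A and glutamate receptor lists in the 4 groups (x axis), 1 point per array with sham in blue and trauma in red, circles for rotational and squares for percussion arrays, and bars for means. The rotational groups do not overlap in any of the 8 panels, and Ddit4 and Hes5 are reversed between the models.

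Notch signalling runs from a ligand on 1 cell to a receptor on the next, whose cleaved tail joins the DNA-binding protein RBPJ and switches on Hes and Hey repressor genes. In the adult brain it keeps neural stem cells and astrocytes in their state. Of 27 measured genes of the pathway 20 were lower, and for 7 all trauma arrays lay below all sham arrays, where 10.8% of all genes did. The median was −0.102 and 0 passed. Among the targets, Hes1 was at −3.19, −3.33 and −3.43 in sham and at −6.18, −5.76 and −4.50 in trauma (−2.16, SE 0.32, adjusted p = 0.0849). Only 1 trauma array, trauma 3, was above background for Hes1. Without it the adjusted p was the lowest of all settings at 6.34e-05. That fit rests on trauma arrays 1 and 2, where Hes1 was not well above background, so this p is no sign of a firmer result. Over the settings the difference ran from −2.657 to −1.366, and its size is uncertain. Hes5 was at −2.59, −2.71 and −2.73 in sham and at −3.24, −3.09 and −3.18 in trauma (−0.49, SE 0.11, adjusted p = 0.298). After percussion trauma Hes5 went the other way, with 0.59, and the difference between the models was −1.08 (adjusted p = 0.0514). Hey1 differed by −0.22, the receptor gene Notch4 by −0.18, Rbpj by −0.16 and the target Heyl by 0.20. Hes1 and Hes5 were thus the members that stood out, and the rest of the pathway differed by small amounts.

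The promoters of Hes1 and Hes5 are shown because both targets had lower means and Notch acts on them through RBPJ. Each line gives the 250 bases before the gene's start from RefSeq on the GRCr8 build, 5′ to 3′ on the gene's strand. Capitals mark TGGGAA, the core letters that RBPJ reads, or its reverse complement TTCCCA.
Hes1: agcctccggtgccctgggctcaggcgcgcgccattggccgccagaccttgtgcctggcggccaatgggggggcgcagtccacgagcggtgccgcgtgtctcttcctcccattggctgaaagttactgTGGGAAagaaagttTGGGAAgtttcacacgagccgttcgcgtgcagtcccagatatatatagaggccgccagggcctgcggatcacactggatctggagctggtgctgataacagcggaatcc
Hes5: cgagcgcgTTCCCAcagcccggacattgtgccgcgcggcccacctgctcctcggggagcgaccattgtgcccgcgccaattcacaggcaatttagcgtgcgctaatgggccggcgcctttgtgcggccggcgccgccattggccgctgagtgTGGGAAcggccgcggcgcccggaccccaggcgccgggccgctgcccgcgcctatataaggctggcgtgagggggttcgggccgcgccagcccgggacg
The Hes1 stretch is chr11:84213046-84213295 on the minus strand and the Hes5 stretch chr5:170804327-170804576 on the plus strand. Each holds 2 matches. The same stretch of Heyl, the target with 0.20, holds 0. Of 33469 RefSeq promoters of this length, 7387 (22.1%) held at least 1 match on either strand and 908 (2.7%) at least 2. A match describes the sequence and is no evidence of binding in this tissue. The genes were picked with their values known, and no stretch is given for Hey1, with −0.22. A link between matches and differences was not tested.

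Genes of receptors for the brain's main inhibitory and excitatory transmitters had lower means after trauma, by small amounts. GABA-A receptors are chloride channels built from alpha, beta and gamma subunits, held at synapses by gephyrin. Of 14 measured genes 13 were lower, and for 7 all trauma arrays lay below all sham arrays, against 10.8% of all genes. The median was −0.154, and 0 passed. The list level was 0.04, 0.09 and 0.10 on the sham arrays and −0.07, −0.06 and −0.10 on the trauma arrays. Gabrg3, a gamma subunit gene, was at −5.72, −6.11 and −5.75 in sham and at −6.21, −6.50 and −6.24 in trauma (−0.45, adjusted p = 0.614). Gabra5, whose subunit serves tonic inhibition, was at −2.59, −2.40 and −2.58 in sham and at −2.96, −2.67 and −2.98 in trauma (−0.35, adjusted p = 0.636). Both had groups that did not overlap. Gabrg3 was above background on 1 trauma array only, and its difference was −0.10 in the authors' log2 table. The exception was Gabrg1, with 0.34. With array row in the model the median was −0.09.

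Glutamate receptors and their scaffolds showed the same lean. Of 27 measured genes 24 were lower, and the median was −0.127. For 6 of them all trauma arrays lay below all sham arrays, against 10.8% of all genes. Grm7, a presynaptic metabotropic receptor, was at −3.20, −3.17 and −3.17 in sham and at −3.55, −3.42 and −3.53 in trauma (−0.32, adjusted p = 0.54). Homer1, a scaffold of the postsynaptic density, differed by −0.28, the NMDA receptor subunit gene Grin3a by −0.20 and Grm2 by −0.33. Ion channels leaned likewise, with 30 of 38 potassium channel genes and 24 of 30 sodium, calcium and HCN channel genes lower (medians −0.109 and −0.08). Of these, Scn3a differed by −0.20 and Cacna1d by −0.32, without overlap of groups. Genes of synaptic vesicle release were lower in 21 of 24 with a median of −0.08. These lists are read against 60.5% of all genes being lower. After percussion trauma the medians were 0.02 for GABA-A receptors and 0.04 for glutamate receptors. They were −0.05 for potassium channels, −0.01 for sodium, calcium and HCN channels and −0.09 for synaptic vesicle release, the last as low as after rotational trauma. In these lists 0 members passed the test of the difference between the models.

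**Figure D5:**
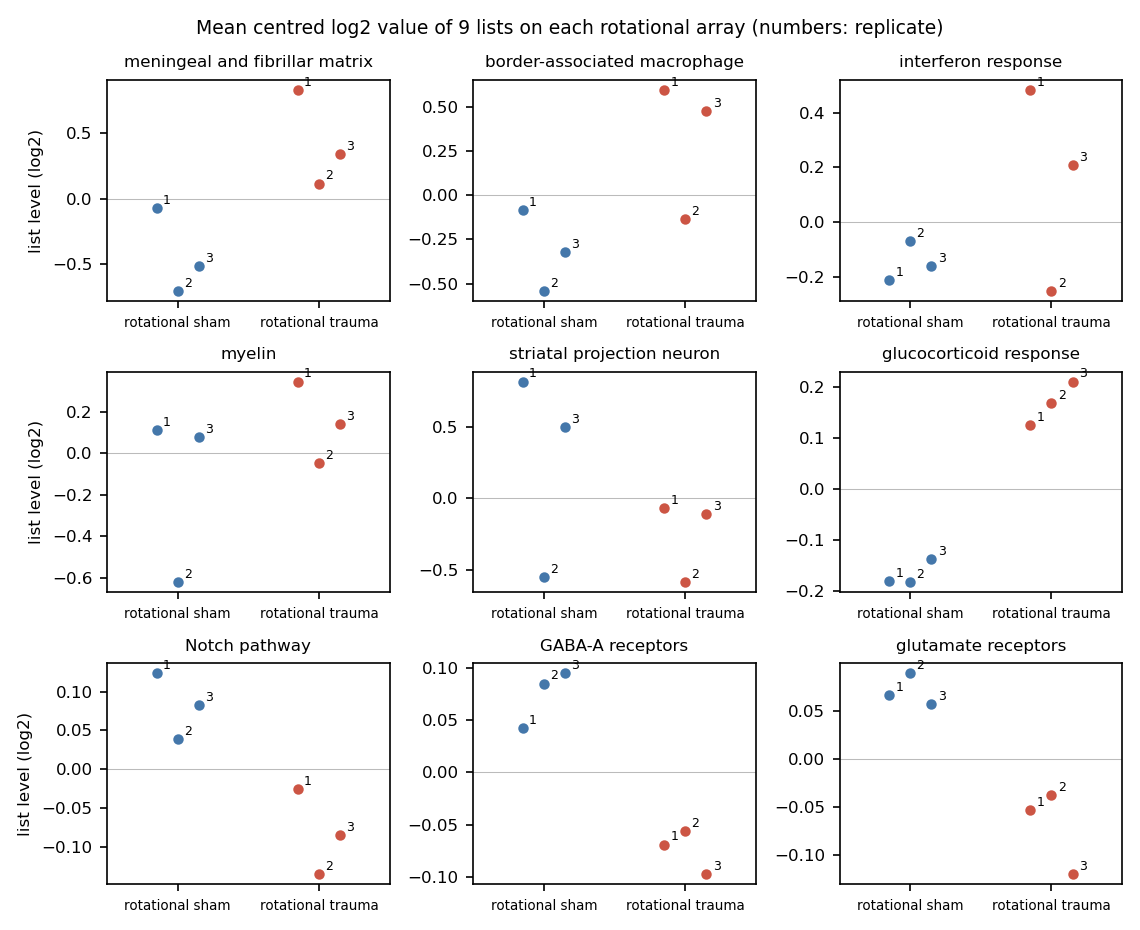
List level (y axis, mean of the members' centred log2 values) of 9 gene lists on each of the 6 rotational arrays, numbered by replicate, with sham in blue and trauma in red. The groups are apart for the meningeal, glucocorticoid, Notch, GABA-A and glutamate receptor lists, whereas interferon genes are low on trauma 2, and myelin and striatal genes are low on sham 2.

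Immune programmes had higher means, with trauma arrays 1 and 2 far apart from each other. For the interferon response, an antiviral programme that acts through STAT2 and IRF9, 24 of 26 measured genes were higher, with a median of 0.263. The list level was −0.21, −0.07 and −0.16 in sham and 0.48, −0.25 and 0.21 in trauma. Trauma 1 was the highest of the 6 arrays and trauma 2 the lowest, so the groups overlapped. The median was 0.084 without rotational trauma 1 and 0.473 without rotational trauma 2. Stat2 was the member of smallest p, at 0.58, 0.55 and 0.59 in sham and at 0.98, 0.78 and 0.91 in trauma (0.31, SE 0.07, adjusted p = 0.361). Irf9 differed by 0.39 and Ifit3, an effector, by 0.63 (adjusted p = 0.569 and 0.571). Complement followed, with 17 of 21 genes higher and a median of 0.15. Its leading members were the inhibitor gene Serping1 with 0.74 (adjusted p = 0.54) and the C1 proteases C1r with 0.77 (adjusted p = 0.578) and C1s with 0.59 (adjusted p = 0.587). Without rotational trauma 1 the complement median was 0.073, and without rotational trauma 2 it was 0.278.

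Astrocyte genes had values in both directions. Of 20 reactive astrocyte genes 15 were higher and 5 lower (median 0.171, and 0.365 without rotational trauma 2). Steap4, a metalloreductase gene, was at −4.69, −4.88 and −4.83 in sham and at −3.57, −3.67 and −3.47 in trauma (1.23, adjusted p = 0.298), even on all 3 trauma arrays. Cp, the copper-carrying ferroxidase ceruloplasmin, differed by 1.01, and the protease inhibitor gene Timp1 by 0.84. Gfap, the filament of reactive astrocytes, was at −0.54, −0.01 and −0.37 in sham and at 0.02, −1.34 and −0.69 in trauma (−0.36, adjusted p = 0.922), and the groups overlapped. S1pr3, a receptor for sphingosine 1-phosphate, differed by −0.71, with 1 trauma array above background, and by −0.12 in the authors' log2 table. Among 20 homeostatic astrocyte genes 7 were higher and 13 lower (median −0.04). Gjb6, the astrocyte gap junction gene for connexin 30, was at 1.93, 1.69 and 1.84 in sham and at 2.33, 2.20 and 2.40 in trauma (0.49, adjusted p = 0.351). Fgfr3, a growth factor receptor of astrocytes, differed by −0.29 with groups that did not overlap.

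The values of the myelin and striatal lists depended on single sham arrays. Of 23 myelin genes 21 were higher in mean, with a median of 0.344, yet for 2 the groups did not overlap, which were Cldn11 and Mag. Sham 2 was at −0.62 on the list level and the other 5 arrays between −0.05 and 0.35. Mag, an adhesion protein of the innermost myelin layer, was at 2.82, 2.30 and 2.99 in sham and at 3.13, 3.00 and 3.25 in trauma. Without rotational sham 2 the myelin median was 0.106. Mbp, the main structural protein of myelin, was at 6.66, 6.48 and 6.57 in sham and at 6.68, 6.48 and 6.35 in trauma. All 14 striatal projection neuron genes were lower in mean (median −0.449), and for 0 the groups did not overlap. Drd2, the D2 dopamine receptor, was at 0.84, −0.83 and 0.59 in sham and at −0.43, −1.23 and −0.85 in trauma. Sham 1 and sham 3 were high and sham 2 lay among the trauma arrays. The median was −0.209 without rotational sham 1 and −0.791 without rotational sham 2. The 5 defining striatum markers had a mean centred level of −0.97 to 1.27 in sham and −0.88 to −0.09 in trauma. Drd2 is one of them, so markers and list share values, and the markers' part in the list's values was not tested.

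Other cell stress programmes stayed near the median of all genes. Of 26 heat shock and chaperone genes 15 were higher (median 0.027). Cryab, the small heat shock protein of oligodendrocytes and astrocytes, led them, at 2.64, 2.35 and 2.85 in sham and at 3.22, 3.20 and 3.38 in trauma (0.65, adjusted p = 0.419). Its percussion difference was −0.21. Among 27 genes of metallothioneins and oxidative stress defence 15 were higher (median 0.049), and the groups did not overlap for the cystine transporter gene Slc7a11 (0.43), the regulator Nfe2l2 (0.25) and Prdx1 (0.31). The 47 cytosolic ribosomal protein genes had a median of 0.0135, with 27 higher. Adm, a vasodilator peptide gene, differed by 0.88 (adjusted p = 0.371), and Abcb1b, a drug efflux pump of the endothelium, by 0.64 (adjusted p = 0.458), both without overlap of groups. Among cytokine genes the directions were mixed, with −0.94 for Il1a, which was not well above background on any trauma array, and 0.45 for Il18.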

How the data were processed

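RNA of each sample was measured on a 1-colour Agilent array for the rat. The scanner files were made by the authors with Feature Extraction 10.5.1.1, per the file headers. Their deposited intensity is background-subtracted per spot and not scaled between arrays. A deposited table of log2 values, normalised by the authors, served as an alternative. Control spots (4259 of 62976) and spots marked as outliers were left out. No spot was saturated (0 on any array). Spots of a probe were averaged as log2 signals minus the array's 75th percentile over 58717 spots. For genes with several probes, the brightest kept probe stood for the gene. Probe names came from the files and a RefSeq table (18394 probes matched by accession, 2464 by symbol, 537 by synonym), and 8972 kept the file's name. Of the genes tested, 4564 have no current symbol.

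R 4.3.3 with limma 3.58.1 fitted 4 group means to all 13 arrays (9 residual and 2.26 prior degrees of freedom) without covariates, and 6 genes with a missing rotational value were fitted on the arrays they had. Tests were two-sided with Benjamini-Hochberg adjustment over all genes. The fit was tested on simulated data. The members and lists were chosen with earlier results of these data known. Named genes were those that passed, up to 12 per direction of smallest p without overlap of groups, the 5 per direction of largest difference, up to 4 of smallest p per list, and marker genes. Cdkn1a, Mdm2, Zmat3, Gabrg1, Heyl, Rbpj and Nr3c1 were named after their values were seen. Where a group was not above background, the fold is a lower bound, taken from the dimmest probe signal above background. Probe coordinates are on rn4. Alternatives changed background correction, scaling, filter, samples, variance model, probe choice, array row and replicate block, and left out each array. Some members of the lists are not reported here by name.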

Additional observations from a re-analysis of the deposited data

Results flagged for a closer look

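In 10 of 99 screened genes, 1 percussion sham array stood far from the other 3. The cutoff would be passed in about 1 in 20 independent, unselected genes. These genes share their arrays and were mostly chosen from a fit that held them, so the count cannot be read against that rate. ENSRNOT00000049083 was at −5.41 on replicate 3, against −7.84 to −7.59. Replicate 1 was apart for Mfap5 (−1.42, against −3.36 to −3.21), Slc35g3 (−5.2, against −6.19 to −6.08), Timp1 (−0.08, against −1.04 to −0.90) and Abcb1b (−0.78, against −1.55 to −1.42). Replicate 4 was apart for Bdh1 (−1.68, against −1.51 to −1.48), Fa2h (0.01, against 0.19 to 0.23), Stat2 (1.18, against 1.37 to 1.40) and Nfkbia (0.59, against −0.11 to −0.02). Mog was at 0.69 on replicate 3, against 0.54 to 0.56.

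The rotational difference minus the percussion difference passed the interaction test for ENSRNOT00000049083 (6.26) and Or5be3 (5.1). For 12 further genes, every array of rotational trauma lay on one side of its sham and every array of percussion trauma on the opposite side, while the interaction test did not pass. The difference was 7.6 for Hpn, 1.15 for Ctrl, 1.31 for Ddit4, 1.29 for Dusp1, 1.58 for Arc and 1.26 for Nfkbia. It was −0.61 for Sec23b, −1.35 for Or2v1, −1.18 for Galns, −1.08 for Hes5, −0.58 for Fgfr3 and −0.47 for Lif. No rotational sham array was well above background for ENSRNOT00000049083 and Hpn, and no rotational trauma array for Or2v1 and Galns. The differences of these genes are thus no sizes of a change. The columns were swapped between the slides, so any gene picked by this rule follows the column on both slides. That holds for the 12 further genes by choice and is no result about them. They come from the 99 screened genes, mostly chosen from the rotational comparison, and the share over all genes is not given. The part of the column was not tested.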

How the results depend on the processing

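The main analysis called 2 genes for rotational trauma and 2 for the difference between the models. In that order, normexp gave 4 and 0, quantile normalization 0 and 1, the authors' log2 values 6 and 0, the filter above background on all 6 arrays 1 and 0, and array row as a term 0 and 0. The mean of a gene's probes gave 4 and 6. For rotational trauma alone, the percentile over probes gave 4, the 6 rotational arrays alone 6 (Ccng1 not among them), and the variance trend 5, with 5 again for its robust form. Without a filter on dim probes 1215 genes were called (1160 higher, 55 lower) and 3804 for the difference. Leaving out 1 array at a time gave 0 to 12 genes for rotational trauma and 0 to 10 for the difference. The count was 12 without rotational trauma 3. It was 0 in each fit that left out rotational sham 3, rotational trauma 2, percussion trauma 2, or percussion sham 2 or 4. The cause was not tested. The percentile over probes was chosen after seeing the data.

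The labels do not say whether the replicate numbers pair the samples, and 3 arrays per group cannot settle it. Same-numbered sham and trauma arrays correlated at 0.117, 0.257 and 0.017 in their deviations across genes. Differently numbered arrays correlated at −0.218 to 0.117. With replicate number within model as a block, 3 genes were called for rotational trauma and 1 for the difference, and 0 of the 3 were among the 2 main calls.

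The median of border-associated macrophage genes was 0.273 with normexp. Oxidative phosphorylation had −0.024 with median scaling, 0.015 with the percentile over probes, 0.015 in the authors' log2 table and 0.026 with array row. Potassium channels had −0.064 in the authors' log2 table, T cell genes 0.45 without a filter, and GABA-A receptors −0.09 with array row. When each array was left out in turn, the medians ran from −0.205 to −0.129 for GABA-A receptors, from −0.166 to −0.102 for glutamate receptors, from −0.131 to −0.065 for potassium channels and from −0.106 to −0.038 for sodium, calcium and HCN channels. They ran from 0.195 to 0.332 for the glucocorticoid response, from −0.158 to −0.049 for the Notch pathway, from −0.161 to −0.045 for upper cortical layers, from −0.087 to 0.026 for homeostatic astrocytes, from −0.072 to 0.08 for the blood-brain barrier endothelium and from −0.033 to 0.219 for angiopoietin and VEGF. Of the list medians under alternatives, 1058 stayed within the spread between replicates and 22 moved by more. The 1058 include the fits that left out a percussion array, which cannot change a rotational median. That count is thus no measure of how stable the medians are. Among named genes 1 value changed sign: Mbp ran from −0.15 to 0.017, the latter without rotational trauma 3. The number of arrays limits the precision, and dim probes have a bound only.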
